A study of Homo sapiens with 11 samples.

Results

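The 9 genes described here were the HOXB genes HOXB2, HOXB3, HOXB4, HOXB5, HOXB6, HOXB7, HOXB8, HOXB9 and HOXB13, out of 28395 genes counted by RNA-Seq in prostate cancer cells with and without ST6GAL1 overexpression. They were taken by Entrez gene identifier from both deposited count tables. The group was chosen by the PC3 log2 fold change of HOXB9. Every HOXB value from the PC3 comparison of overexpression against control is therefore given as a description, without a p-value. The fall of HOXB9 was the largest among genes that passed the thresholds given below and met 2 further conditions. These were no overlap between groups and a mean of at least 10 normalized CPM in either group. RARB, at a lower level, fell further (-1.68). In the list of 82 falls from which HOXB9 was taken, its log2 fold change of -1.58 was followed by those of CXCL5 (-1.51) and CCNA1 (-1.36). HOXB1, the remaining gene of the cluster, had no counts in any of the 11 libraries.

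Both lines are established from human prostate cancer, PC3 from a bone metastasis and DU145 from a brain metastasis. Overexpression cells were stably transduced with lentivirus carrying ST6GAL1, the enzyme that adds α2-6 linked sialic acid to N-glycans, and control cells with negative-control lentiviral particles. All cells compared here, controls included, had therefore been transduced. There were 3 PC3 control, 3 PC3 overexpression and 3 DU145 control libraries, and 2 DU145 overexpression libraries numbered replicates 2 and 3. They are described as biological repeats of transduced populations, and whether they came from separate transductions is not given in the sources used here, so p-values measure the spread between these libraries only.

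HOX genes encode homeodomain transcription factors that give cells their position along the body axis. In each of the 4 HOX clusters the genes lie in one orientation, and the genes at the 3′ end of a cluster act towards the head and those at the 5′ end towards the tail. Adult tissues keep part of the HOX pattern of their origin, and HOXB13, the gene at the 5′ end of the HOXB cluster, marks prostate epithelium.

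On GRCh38 the 9 genes lay on the minus strand of chromosome 17, from HOXB2 (chr17:48542655-48545109) to HOXB13 (chr17:48724763-48728750), a span of 186.096 kb. HOXB2 to HOXB9 (chr17:48621156-48626358) were packed together, and 98.404 kb separated HOXB9 from HOXB13. In the reference annotation the exons of HOXB7, HOXB8, HOXB9 and HOXB13 overlapped no exon of another counted gene. HOXB6 shared 16.6% of its exon bases with HOXB3 on the same strand and 16.3% with the antisense gene HOXB-AS3, so reads of these genes may not be separable. Whether the counting used strand is not given in the sources used here.

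The gap between HOXB9 and HOXB13 holds MIR196A1, one of the genes for miR-196a, and MIR10A lies next to HOXB4, within the span of HOXB3 (chr17:48548870-48590241). MicroRNAs bind mRNAs mainly through their seed, bases 2 to 8, and miR-196 is known to direct the cleavage of HOXB8 mRNA. The mature sequences below are from RefSeq, with the seed in capitals. They are shown because HOXB8, the second HOXB gene that was lower in PC3 overexpression cells, carried the most complete match to one of them.
hsa-miR-196a-5p (chr17:48632532-48632553, minus strand): uAGGUAGUuucauguuguuggg
hsa-miR-10a-5p (chr17:48579904-48579926, minus strand): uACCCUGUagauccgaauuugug

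Every 22-base window of the 3′ UTR of 19447 canonical GENCODE transcripts was paired, without gaps, with miR-196a-5p read in the opposite direction. In the 2 windows below, from 3′ UTRs, capitals mark bases that formed a Watson-Crick pair, and HOXB7 is shown as a member that held the seed match.
HOXB8 3′ UTR (chr17:48612770-48612791, minus strand): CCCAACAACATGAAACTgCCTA
HOXB7 3′ UTR (chr17:48607614-48607635, minus strand): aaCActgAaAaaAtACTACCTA
The HOXB8 window formed 21 pairs of 22 and 1 wobble pair, the most of all 19447 UTRs, where the next highest number was 17 and the median of the best windows was 13. The HOXB7 window formed 13 pairs. The exact seed match ACTACCT, searched on the transcript strand only, was absent from the HOXB8 UTR, whose window has its wobble pair in the seed, and present in those of HOXB6, HOXB7 and HOXB13. It was found in 7.06% of all 3′ UTRs (median length 1074 bases) and in 8 of 39 HOX UTRs (20.5%, median length 905 bases). The HOXB9 UTR held no such match, and its best window formed 12 pairs. The seed match of miR-10a-5p, ACAGGGT, was present in the UTR of HOXB3 and of no other HOXB gene here, and was found in 12.6% of all UTRs. These are descriptions of sequence. Poly(A) libraries do not measure mature microRNAs, and the rows for MIR196A1 and MIR10A had no counts in any library.

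Counts on genes totalled 13194485 to 18201359 per library, at which a count of 3, taken as the floor, corresponded to 0.165 to 0.224 CPM, the count scaled to a common library total. Floors and counting intervals cover counting error only. ST6GAL1 rose from 2.71 to 32.5 normalized CPM in PC3 (log2 fold change 3.58) and from 12.9 to 322.5 in DU145 (4.65). The epithelial markers KRT8, KRT18 and EPCAM were present in all 11 libraries, and the prostate secretory genes KLK2 and KLK3 had no counts in any. Of single markers of other cell types, the fibroblast gene DCN had at most 1 count in any library and the leukocyte gene PTPRC at most 13. COL1A1, another fibroblast gene, had 376 to 449 counts in PC3 control, 266 to 340 in PC3 overexpression, 70 to 97 in DU145 control and 48 and 105 in DU145 overexpression libraries. The endothelial gene PECAM1 had 87 to 125 counts in PC3, and in DU145 rose from 3 to 7 counts in control to 12 and 26 counts in overexpression libraries. The part of cells expressing PECAM1 or COL1A1 in the HOXB values was not tested. In bulk RNA, fewer cells of a type and less RNA per cell cannot be told apart.

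In PC3 cells HOXB9 and HOXB8 were lower and HOXB13 was higher with ST6GAL1 overexpression, and the other HOXB genes had small or imprecise negative differences. HOXB9, a posterior HOX gene that patterns the thoracic skeleton and has been linked to growth factor expression in breast cancer, was read at 77.0, 78.1 and 82.7 normalized CPM in the PC3 control libraries and at 26.9, 27.1 and 25.7 in the overexpression libraries. Each overexpression library lay far below every control library, at a ratio of means of 0.335. Control cells averaged 79.3 ± 3.03 (SD, n = 3) and overexpression cells 26.5 ± 0.747 (SD, n = 3), for a log2 fold change of -1.58 (SE 0.0497). These levels rest on 1236 to 1376 counts per control library and 395 to 491 per overexpression library.

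HOXB8, which holds back the differentiation of myeloid progenitors and acts in spinal cord patterning, had far fewer reads, with 31, 34 and 27 counts in the PC3 control libraries and 12, 13 and 11 in those with overexpression. Every overexpression library was below every control library. In normalized CPM its mean was 1.88 ± 0.232 (SD, n = 3) in control and 0.742 ± 0.0648 (SD, n = 3) in overexpression cells, or a log2 fold change of -1.33 (SE 0.274).

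HOXB13, the prostate lineage factor, was read at 525, 570 and 558 normalized CPM in the PC3 control libraries and at 834, 827 and 849 in the overexpression libraries. The groups did not overlap, and the overexpression libraries were tightly grouped above the controls. The log2 fold change was 0.60 (SE 0.0263), a ratio of 1.52, and without control replicate 1 it was 0.57, under the fold threshold of 0.58.

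The remaining PC3 values were smaller or rested on few reads. HOXB6, expressed in erythroid and trunk tissues, had 44.6 ± 1.52 normalized CPM in control and 39.8 ± 0.490 in overexpression cells (SD, n = 3 each), or a log2 fold change of -0.16 (SE 0.0505). HOXB5, which acts in enteric neural crest and endothelial precursors, had a log2 fold change of -0.20 (SE 0.0863). The control and overexpression libraries of HOXB6 and of HOXB5 did not overlap. The share of all tested genes without overlap in PC3 is not given here, so nothing is read from it for any HOXB gene. HOXB3, a hindbrain patterning gene, had a log2 fold change of -0.18 (SE 0.0723), with overlapping groups. HOXB2, HOXB4 and HOXB7 had between 6 and 28 counts in every PC3 library and overlapping groups. HOXB2 patterns the hindbrain, HOXB4 acts in the self-renewal of blood stem cells, and HOXB7 has been linked to FGF2 expression in tumours. Their log2 fold changes were -0.33, -0.58 and -0.64, with SEs of 0.325, 0.297 and 0.350.

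Of the 9 HOXB genes 8 had a negative and 1 a positive log2 fold change in PC3, with a median of -0.33 against -0.0016 over all 13544 genes tested. At the thresholds used throughout, a Benjamini-Hochberg adjusted p under 0.05 by the quasi-likelihood test of edgeR together with a log2 fold change beyond 0.58 in size, 1 was called higher and 2 lower (adjusted p-values printed hereafter are from this test unless another is named), where 5.38% of all tested genes were called in either direction. Since this comparison chose the genes, nothing is read from that count. The median rested on the genes with few reads, and was -0.20 when only the 7 genes with at least 10 counts in every library were kept. It was -0.19 without control replicate 2, -0.17 without overexpression replicate 1 and -0.63 without overexpression replicate 3.

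**Figure D1:**
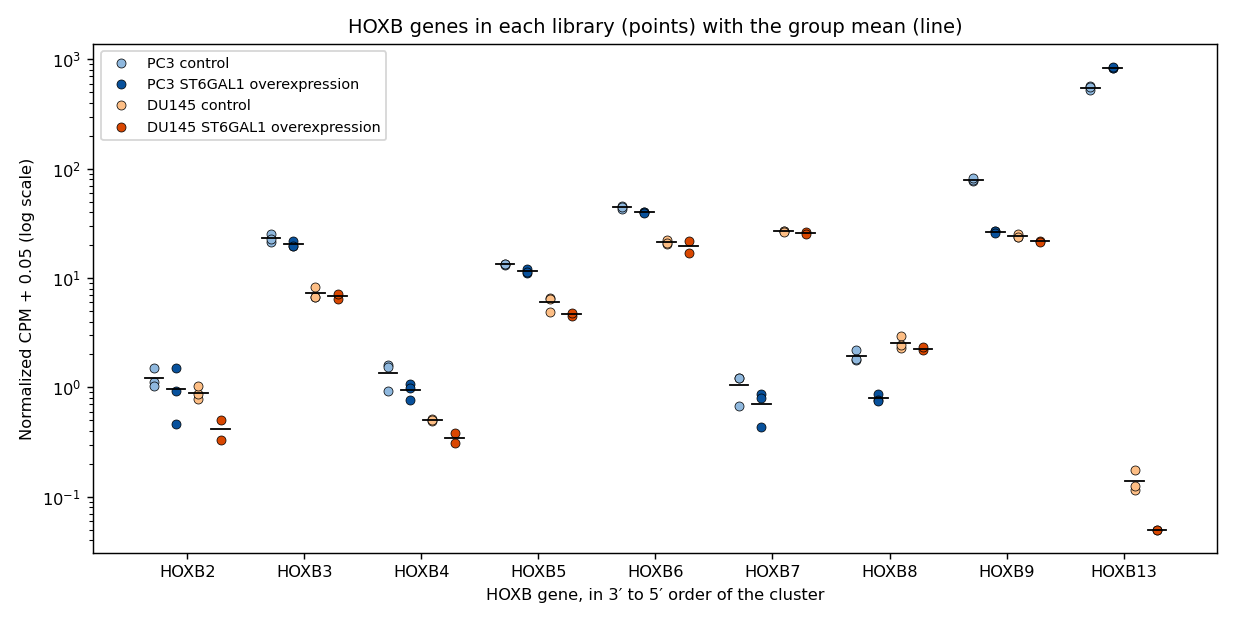
Normalized CPM plus 0.05 (log scale) of the 9 HOXB genes, in their order along the cluster, in each of the 11 libraries (points) with group means (lines). HOXB9 fell to about 26.5 in PC3 overexpression cells, near its DU145 means of 24.2 and 21.6, while HOXB13 was the highest gene in PC3 and at or near 0 in DU145.

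HOXB9 and HOXB6 changed places in the order of HOXB levels in PC3. Levels of different genes were compared as normalized CPM per kb of the canonical transcript, and all orders given here hold for that length only. The canonical transcripts of HOXB6 and HOXB3 have 1676 and 3301 bases, against 2604 and 7425 bases over all annotated exons. Orders at other lengths were not computed. In PC3 control cells HOXB13 was at 181 CPM per kb, followed by HOXB9 at 30.7 and HOXB6 at 26.6, whose library ranges did not overlap. HOXB5 (7.15) and HOXB3 (7.02) came next and overlapped each other. HOXB8, HOXB7, HOXB2 and HOXB4 lay between 0.658 and 0.865 CPM per kb, each overlapping its neighbour in the order. In overexpression cells HOXB6 at 23.7 CPM per kb stood above HOXB9 at 10.3, with HOXB13 at 275 and HOXB5 (6.19) and HOXB3 (6.17) again together. HOXB8, at 0.341 CPM per kb, was then the lowest of the 9, overlapping HOXB4 at 0.447.

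The ratio of HOXB9 counts to HOXB6 counts, which does not depend on the library total, was 1.7 to 1.84 in the PC3 control libraries and 0.654 to 0.677 in the overexpression libraries. In DU145 it was 1.13 to 1.16 in control and 0.977 and 1.29 in overexpression libraries. HOXB13 held 76.7% to 77.3% of the counts on the 9 genes in PC3 control libraries and 88.9% to 89.5% in overexpression libraries, while the share of HOXB9 went from 10.6% to 11.4% down to 2.71% to 2.91%. Without HOXB13, the sum of the other 8 genes was 166 ± 5.07 normalized CPM in control and 101 ± 1.94 in overexpression cells (SD, n = 3 each). Most of that fall was HOXB9, the gene chosen for its fall, which went from 79.3 to 26.5 normalized CPM. With HOXB13 included, the sum was 717 ± 28.0 in control and 938 ± 9.58 in overexpression cells, so the sum of the cluster followed HOXB13.

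**Figure D2:**
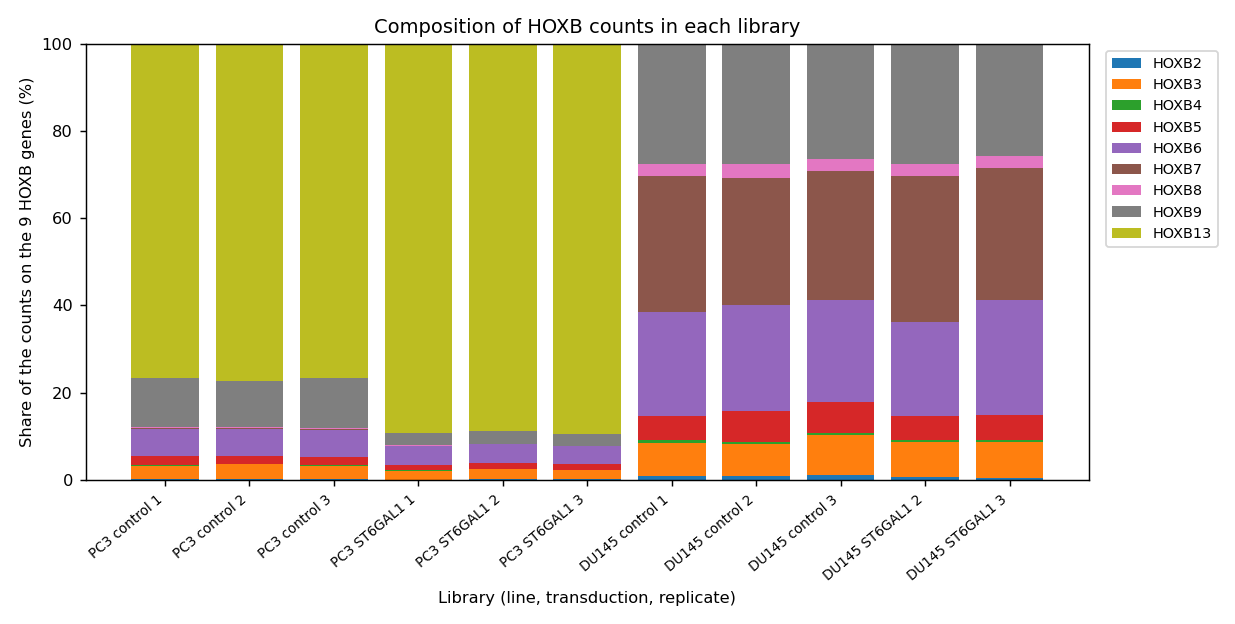
Share of the counts on the 9 HOXB genes that fell on each gene (%, stacked bars, not corrected for transcript length) in the 11 libraries. HOXB13 filled 76.7% to 77.3% of the bar in PC3 control and 88.9% to 89.5% in PC3 overexpression libraries and was at most 0.138% in DU145, where HOXB7, HOXB9 and HOXB6 filled most of it.

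The DU145 comparison played no part in the choice of the genes, and asks whether the HOXB genes changed with ST6GAL1 overexpression in a second line. The 2 DU145 overexpression libraries differed from each other by 12.6 times the sampling noise (chi-square per degree of freedom over genes), against 1.37 to 5.21 for the 9 other replicate pairs of the 4 groups. HOXB4 and HOXB13 had too few reads for the test there, with at most 7 and 2 counts in any library, and 7 of the 9 were tested. None of the 7 was called by edgeR's quasi-likelihood test, limma-voom or DESeq2, where 8.94% of all 13676 tested genes were called by edgeR, and 1 of the 7 had an unadjusted p under 0.05. All 7 log2 fold changes were negative, with a median of -0.16 against -0.0016 over all tested genes. HOXB2, the gene with the unadjusted p under 0.05, passed the filter on low counts through its control libraries only, which favours a negative value. The share of all tested genes with a negative value is not given here, so nothing is read from the signs. For 4 of the 7, HOXB2, HOXB5, HOXB7 and HOXB9, both overexpression libraries were below all control libraries, which was so for 23.7% of all tested genes. Of the 7 genes, 6 had a 95% interval of the log2 fold change that spanned 0.

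HOXB9 was read at 23.8, 25.1 and 23.7 normalized CPM in the DU145 control libraries and at 21.7 and 21.5 in the overexpression libraries. The groups did not overlap but lay close together. The log2 fold change was -0.16 (SE 0.104, 95% interval -0.38 to 0.06, adjusted p = 0.319), beside -1.58 in PC3. The difference between the lines was not tested for the HOXB genes, since the PC3 comparison chose them.

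HOXB7, at 26.9, 26.6 and 26.5 normalized CPM in DU145 control and 26.4 and 25.1 in overexpression libraries, had a log2 fold change of -0.05 (95% interval -0.26 to 0.17, adjusted p = 0.778). HOXB8, lower in PC3, had 34, 46 and 32 counts in DU145 control and 33 and 41 in overexpression libraries, which overlapped. Its log2 fold change was -0.19 (95% interval -0.69 to 0.32, adjusted p = 0.624). The largest difference in DU145 was that of HOXB2, with 11, 13 and 13 counts in control and 7 and 5 in overexpression libraries. It passed the filter on low counts through its control libraries only, so its log2 fold change of -1.19 (SE 0.465) is given as a description. HOXB3 (-0.08), HOXB5 (-0.36) and HOXB6 (-0.12) had adjusted p-values of 0.771, 0.184 and 0.545. The signs of HOXB3 and HOXB6 depended on a single library, being 0.010 without control replicate 3 and 0.041 without overexpression replicate 2. HOXB6 had 262 counts in overexpression replicate 2 and 394 in replicate 3, or 16.9 and 21.98 normalized CPM, either side of its control mean of 21.3.

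The control cells of the 2 lines differed in which HOXB genes were expressed, with HOXB13 in PC3 and HOXB7 in DU145 at opposite ends. This comparison shares its PC3 control libraries with the one that chose the genes, and line cannot be told apart from deposited table. HOXB9, whose PC3 control values entered that choice, is therefore given by its levels. HOXB4 and HOXB13 passed the filter on low counts through the PC3 libraries only, and HOXB7 through the DU145 libraries only. They are also given by their levels. Of the rest, 3 were called lower in DU145 by edgeR's quasi-likelihood test (HOXB3, HOXB5 and HOXB6), and HOXB2 and HOXB8 were not called. Over all 14246 tested genes 64.6% were called, 31.8% higher and 32.8% lower in DU145.

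HOXB13 had 9384, 9024 and 8555 counts in the PC3 control libraries and 1, 2 and 1 in the DU145 control libraries. In the DU145 overexpression libraries it had no counts. Taken relative to the summed library totals, HOXB13 counts were 6099 times as frequent in PC3 controls (95% interval 2382 to 22387 from counting error alone), and the DU145 level lay under the floor of 3 counts in every library. HOXB7 went the other way, with 21, 10 and 18 counts in PC3 control libraries against 408, 420 and 355 in DU145 control libraries. Its means were 0.994 ± 0.313 and 26.7 ± 0.213 normalized CPM (SD, n = 3 each), a description only.

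HOXB3 was lower in DU145 than in PC3 control cells by a log2 fold change of -1.69 (SE 0.102, adjusted p = 7.34e-15), and HOXB5 (-1.16) and HOXB6 (-1.06) were also called lower. HOXB9 averaged 79.3 ± 3.03 normalized CPM in PC3 control and 24.2 ± 0.795 in DU145 control cells (SD, n = 3 each), a description only. HOXB4 had 14 to 28 counts per PC3 library and 6 or 7 per DU145 library. HOXB8 (0.43, adjusted p = 0.0609) and HOXB2 (-0.47, adjusted p = 0.150) were not called, with 95% intervals of -0.01 to 0.87 and -1.10 to 0.16.

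Per kb of transcript, the order in DU145 control cells was HOXB7 (19.6 CPM per kb), HOXB6 (12.7), HOXB9 (9.36), HOXB5 (3.20), HOXB3 (2.18), HOXB8 (1.16), HOXB2 (0.50), HOXB4 (0.226) and HOXB13 (0.0294), with no overlap of library ranges between neighbours. The DU145 overexpression libraries kept this order, with HOXB2 and HOXB4 overlapping. At this length, HOXB6, HOXB9, HOXB5 and HOXB3 were among the 5 highest HOXB genes in both lines, joined by HOXB13 in PC3 and by HOXB7 in DU145. The places of HOXB6 and HOXB3 depend on the length used, and the lack of overlap does not cover that choice.

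**Figure D3:**
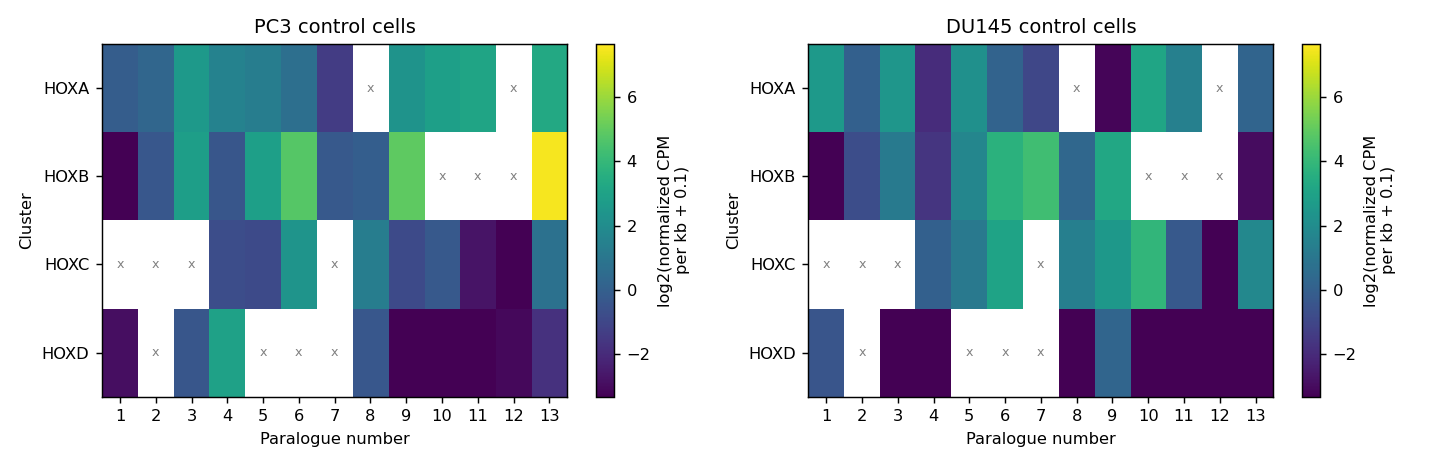
Mean level of each HOX gene in control cells of PC3 (left) and DU145 (right), as log2 of normalized CPM per kb plus 0.1 (colour scale), by cluster (rows) and paralogue number (columns), where x marks positions with no gene. HOXB13 was the highest entry in PC3, at 181 CPM per kb, and HOXB7 the highest in DU145, at 19.6 CPM per kb.

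Across the 4 clusters, the HOXB genes had the highest summed level in both control lines, at 717 ± 28.0 normalized CPM in PC3 (SD, n = 3) and 89.2 ± 2.73 in DU145 (SD, n = 3). These sums are not per length. In PC3 the HOXA genes summed to 133 ± 6.08, the HOXC genes to 21.7 ± 1.27 and the HOXD genes to 12.7 ± 1.04 normalized CPM. In DU145 they summed to 77.0 ± 2.65, 72.2 ± 1.64 and 3.25 ± 0.749. Of the 30 other HOX genes 23 were tested between the control lines and 17 were called, 10 higher and 7 lower in DU145. Over all tested genes 64.6% were called, so nothing is read from that count. HOXC10 (4.31) was among the higher. Some of the 17 calls set a gene against a line where it was hardly read, and examples are given as counts. With at least 10 counts required in every library, 7 were called. HOXD9 had none in PC3 control and 25 to 35 in DU145 control libraries, HOXD4 123 to 153 and none, and HOXA9 161 to 167 and at most 1. Both tested paralogues of HOXB13 were called, HOXA13 lower in DU145 (-3.20, adjusted p = 1.82e-22) and HOXC13 higher (1.08, adjusted p = 3.36e-08).

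In PC3, 18 of the other 30 HOX genes were tested and 4 were called lower with overexpression, where 1.76% of all genes were called lower. These were HOXC10 (-1.29), HOXC8 (-0.84), HOXA11 (-0.75) and HOXA5 (-0.59). Adjusted p-values of HOXC8, HOXA11 and HOXA5 were 2.37e-05, 6.07e-11 and 0.00655. HOXC10 passed the filter on low counts through its control libraries only, with 8 to 11 counts in overexpression libraries. Its value is therefore a description, though it is counted among the 4. HOXC8 is a paralogue of HOXB8, and HOXD8, the other tested one, had -0.25 (adjusted p = 0.448). HOXA9, the tested paralogue of HOXB9, had a log2 fold change of -0.02 (adjusted p = 0.879). Of the 2 tested paralogues of HOXB13, HOXA13 had 0.31 (adjusted p = 9.49e-07), below the fold threshold, and HOXC13 0.01 (adjusted p = 0.967). HOXA5 missed the fold threshold without PC3 control replicate 2 (-0.54), overexpression replicate 1 (-0.49) or overexpression replicate 3 (-0.57).

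In DU145, 2 of 19 tested HOX genes outside HOXB were called, both lower, where 4.61% of all genes were called lower. They were HOXC8 (-1.11, adjusted p = 7.88e-04) and HOXC5 (-0.90, adjusted p = 0.0203). HOXC8 was thus called lower in both lines. HOXC5 missed the threshold without control replicate 2 (adjusted p = 0.109), control replicate 3 (0.0787) or overexpression replicate 2 (0.0851), and under DESeq2 (0.0944).

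The genes around the HOXB cluster were taken by position, 27 within 500 kb. Next to HOXB13 lie PRAC1 and PRAC2, small genes named for their expression in prostate, rectum and colon, and the microRNA gene MIR3185. PRAC1 was read at 46.5, 53.0 and 52.1 normalized CPM in PC3 control and at 62.1, 64.3 and 60.1 in PC3 overexpression libraries, and had no counts in the 5 DU145 libraries. Its log2 fold change in PC3 was 0.31 (adjusted p = 2.36e-06), below the fold threshold, and that of PRAC2, on the opposite strand, was -0.39 (adjusted p = 6.97e-04). MIR3185, at 43 to 61 counts in control and 56 to 110 in overexpression libraries, was called higher (0.65, adjusted p = 0.00265), and without overexpression replicate 2 had 0.41 (adjusted p = 0.107). MIR3185 (chr17:48724408-48724475) lies within the span of PRAC2 (chr17:48718666-48724758), next to the 3′ end of HOXB13. Poly(A) libraries do not measure mature microRNAs, and which transcript these reads came from was not tested.

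Of the 14 neighbours tested in PC3, MIR3185 and PHOSPHO1 (-0.70, a phosphatase of bone mineralisation, adjusted p = 0.00588) were called, and the median log2 fold change of the 14 was -0.04. In DU145, 2 of 13 were called, both lower. SKAP1, an adaptor of T cell receptor signalling that lies beyond the HOXB2 end of the cluster, fell by 1.72 on the log2 scale (adjusted p = 2.78e-06), from 15.6 to 18.4 normalized CPM in control to 4.85 and 5.67 in overexpression libraries. TTLL6, a tubulin glutamylase gene beyond HOXB13, had -1.42 (adjusted p = 0.0363). Its adjusted p was over the threshold without control replicate 1 (0.129), 2 (0.0808) or 3 (0.0758), without overexpression replicate 3 (0.169), under DESeq2 (0.177) and with the replicate block (0.0555). HOXB-AS1, antisense within the cluster, had 0.16 in PC3 and -0.45 in DU145 (adjusted p = 0.535 and 0.124).

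**Figure D4:**
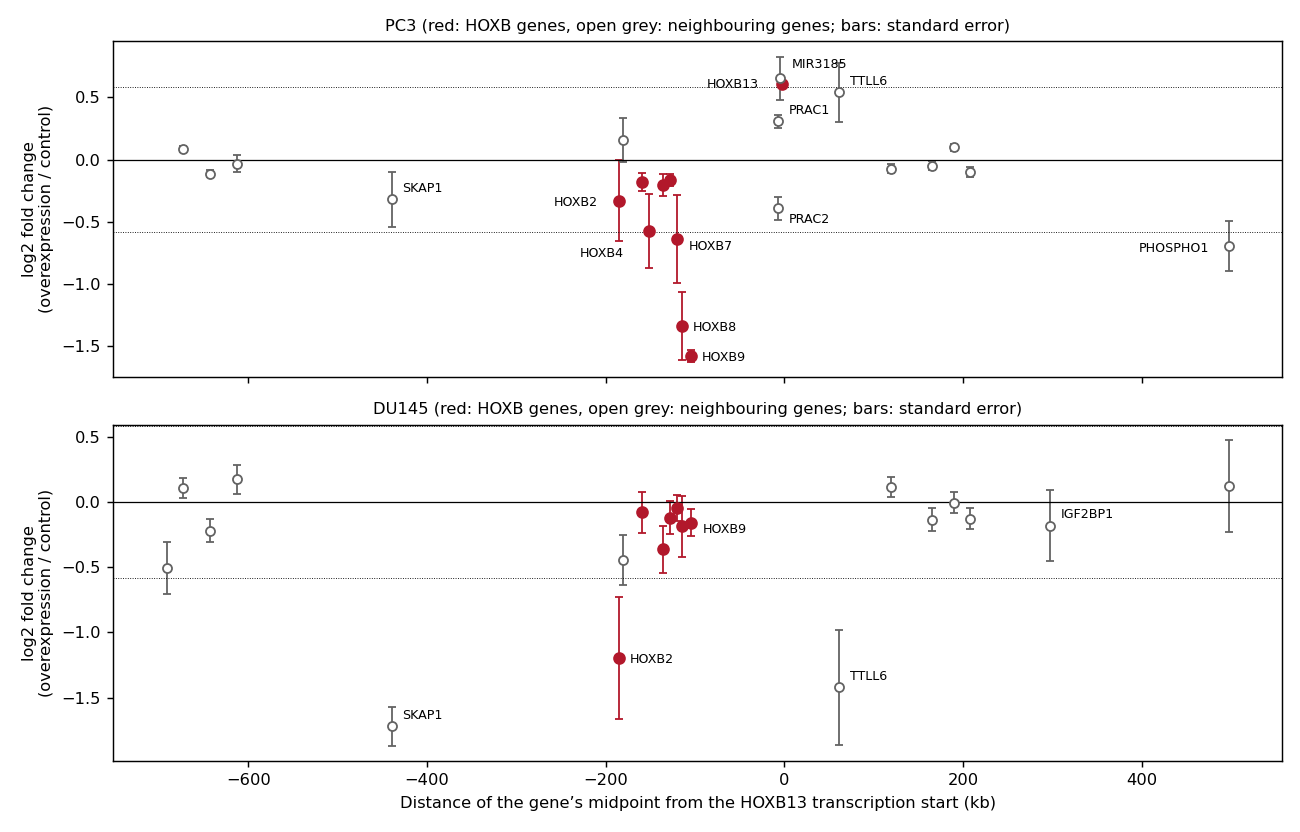
Log2 fold change of overexpression against control (points, bars are standard errors) of HOXB genes (red) and of other tested genes within 500 kb (open grey) in PC3 (top) and DU145 (bottom), by distance from the HOXB13 transcription start in kb; dotted lines mark 0.58 and -0.58. In PC3 HOXB9 (-1.58) and HOXB8 (-1.33) lie below all neighbours and HOXB13 (0.60) beside MIR3185 (0.65), while in DU145 the lowest points are SKAP1 (-1.72), TTLL6 (-1.42) and HOXB2 (-1.19).

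HOX proteins bind DNA together with partner homeodomain proteins, of which 8 from the PBX, MEIS and PKNOX families are given here. In PC3, none of the 6 tested was called by edgeR's quasi-likelihood test, by limma-voom or by DESeq2, and 1 had an unadjusted p under 0.05, PBX4 (log2 fold change -0.30, adjusted p = 0.0762), named after its value was seen. In DU145, 1 of 7 was called, MEIS3, which averaged 4.30 ± 0.302 normalized CPM in control (SD, n = 3) and 2.69 ± 0.530 in overexpression libraries (SD, n = 2), a log2 fold change of -0.66 (adjusted p = 0.0347) without overlap between the groups. MEIS3 was over the threshold without control replicate 1, 2 or 3 (adjusted p of 0.0990, 0.146 and 0.0690), without overexpression replicate 2 (0.145) and under DESeq2 (0.158).

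HOX genes are held open by trithorax and silenced by Polycomb proteins, and are induced through retinoic acid receptors and CDX factors. Of 35 such regulators 31 were tested in PC3 and 1 was called, RARB, a retinoic acid receptor. RARB fell by 1.68 on the log2 scale, from 2.18, 2.47 and 1.695 normalized CPM to 0.476, 0.717 and 0.757. It passed the filter on low counts through its control libraries only, so its fall is given as a description. With at least 10 counts required in every library, 0 regulators were called in PC3. In DU145 1 of 30 was called, the Polycomb gene BMI1 (-0.83, adjusted p = 0.0286). BMI1 was over the threshold without control replicate 1, 2 or 3 (adjusted p of 0.0581, 0.111 and 0.107), without overexpression replicate 2 (0.134) and under DESeq2 (0.126). The medians of the regulators were -0.01 in PC3 and -0.09 in DU145.

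HOXB9 has been linked in other cells to angiogenic, ErbB and TGF-β ligands, of which 9 were listed from general knowledge. In PC3, where HOXB9 was lower, 2 of 7 tested were called, both lower, the neutrophil chemokine CXCL8 (-1.30, adjusted p = 8.22e-27) and TGFB2 (-0.60, adjusted p = 3.67e-13). TGFB2 missed the fold threshold without control replicate 1 (-0.56). The median of the 7 was 0.06, with 5 positive and 2 negative. In DU145, 4 of 8 were called, VEGFA (0.70) and TGFB2 (0.79) higher and AREG (-1.17) and NRG1 (-1.42) lower. NRG1 was over the threshold without control replicate 2 (adjusted p = 0.0844) and under DESeq2 (0.0913). It passed the filter on low counts through its control libraries only, with 9 counts in each overexpression library, so its value is a description.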

How the data were processed

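RNA was extracted from the transduced PC3 and DU145 cells, and poly(A) libraries were prepared with the TruSeq Stranded mRNA kit. In Galaxy, single reads were trimmed (Cutadapt), aligned to hg38 (HISAT2) and assigned to genes (featureCounts) by the authors. The deposited values were whole-number read counts per Entrez gene without normalization, and the annotation and strand setting used for counting are not given in the sources used here. Of the 28395 identifiers 97.7% matched the reference annotation.

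Each comparison was fitted on its own over all genes with edgeR 4.0.16 in R 4.3.3 (filterByExpr, TMM factors, robust quasi-likelihood test, Benjamini-Hochberg adjustment), for 13544 genes in PC3, 13676 in DU145 and 14246 between control lines. Normalized CPM used TMM factors over all 11 libraries. Calls needed both an adjusted p under 0.05 and a log2 fold change beyond 0.58 in size. Alternatives were limma-voom 3.58.1, DESeq2 1.42.0, RLE factors, other filters, no fold threshold, a replicate block and leaving out each library. All 9 HOXB genes were named, and up to 6 called genes of each other list. Some genes of the lists are not reported here. The members and lists were chosen with earlier results of these data known. Coordinates and transcripts are from the GRCh38 reference, with 3′ UTRs of GENCODE canonical transcripts and microRNAs from RefSeq.

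Same-numbered libraries did not deviate together in PC3 (correlations 0.03, 0.08 and 0.02), so the number was not used as a block there. In DU145 the correlations were 0.18 and 0.48, and the model without a block was kept, with the block as an alternative. The calls that changed with the block are given below, and no HOXB gene was called in DU145 with it. On simulated counts, 99% of 200 changed genes were recovered in PC3 (1 false call), 96% in DU145 and 97% between lines. Genes with few reads were not among those changed, and all genes were given a common dispersion. These rates therefore do not cover HOXB genes with few reads or genes with a wider spread between libraries. No replicate pair differed by less than the sampling noise, and the DU145 overexpression pair differed most.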

Additional observations from a re-analysis of the deposited data

Results flagged for a closer look

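Among genes of the other lists, 8 had opposite signs in the lines, without overlap between overexpression and control libraries in either line, and their difference passed a test. The test was the interaction of line and overexpression over all 11 libraries by edgeR's quasi-likelihood test, chosen after the values were seen, and the values are DU145 minus PC3 on the log2 scale. Genes picked for opposite signs without overlap tend to have small p-values in this test. The share of all 14952 genes tested that met the same conditions was not computed, so nothing is read from the count. Of the HOX genes, this was HOXA13 (-0.64, adjusted p = 0.00538). Of the Polycomb genes they were JARID2 (0.47, adjusted p = 0.00129), CBX6 (-0.54, adjusted p = 8.08e-04) and CBX8 (-0.74, adjusted p = 0.0162). Of the ligands they were CXCL8 (2.04, adjusted p = 2.04e-06), AREG (-1.28, adjusted p = 3.83e-09) and TGFB2 (1.38, adjusted p = 1.76e-08), and of the neighbours TTLL6 (-1.97, adjusted p = 0.00554).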

How the results depend on the processing

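No HOXB gene was called in DU145 under any alternative run. Between the lines, HOXB3, HOXB5 and HOXB6 were called lower in DU145 under every alternative run, where 64.6% of all genes were called in the main run. HOXB4, HOXB7, HOXB9 and HOXB13 are given by their levels there, so their calls are not counted. The median HOXB log2 fold change in PC3 (-0.33) was -0.46 with limma-voom, -0.20 with at least 10 counts in every sample, -0.37 with the replicate block and between -0.63 and -0.17 without single replicates. The HOXB2 value in PC3 ranged from -0.79 to -0.01 without single replicates, being -0.79 without overexpression replicate 3. Signs reversed in DU145 for HOXB3 (-0.15 to 0.010 without single replicates) and HOXB6 (-0.32 to 0.041), without the libraries named above. In PC3, no partner was called under any alternative run. The called regulators there went from 1 to 2 with limma-voom, 0 with at least 10 counts, 2 with the replicate block and 14 without the fold threshold. The called ligands went from 2 to 4 without the fold threshold and 1 to 2 without single replicates, and the called neighbours from 2 to 8 without the fold threshold. In DU145, DESeq2 called 1 other HOX gene, 0 partners, 0 regulators and 1 neighbour. There, the filter of 10 counts left 1 neighbour, no filter gave 3 regulators, the replicate block 3 regulators and 1 neighbour, and the adjusted p alone 5 regulators. Without single replicates the ranges in DU145 were 1 to 2 other HOX genes, 0 to 1 partners, 0 to 5 regulators and 1 to 3 neighbours. Between the lines, the filter of 10 counts left 7 called other HOX genes instead of 17. The causes of these shifts were not tested. In DU145 the 2 pairs with the same number had correlations of 0.18 and 0.48, and between lines they were 0.07, -0.05 and -0.03. The block changed no other call among the counts above. Genes with under about 30 counts, HOXB2, HOXB4, HOXB7 and HOXB8 in PC3, are limited by depth.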

Other observations

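Genes whose levels over all 11 libraries were most like those of HOXB9 and HOXB13 were found by Pearson's r of log2(normalized CPM + 0.5) among 10847 genes with a mean of at least 10 CPM in a group. Libraries of one line and group share their source, so r is a description. The 3 genes most like HOXB9 were SRPX (r = 0.96), a sushi repeat protein, KIF5C (0.96), a kinesin heavy chain, and EHD4 (0.94), an endocytic recycling protein. Like HOXB9, each was higher in every PC3 control library than in every other library. SRPX was at 13.7 to 14.9 normalized CPM in PC3 control, 8.49 to 9.25 in PC3 overexpression, 7.46 to 8.30 in DU145 control and 8.57 and 9.32 in DU145 overexpression libraries. The 3 most like HOXB13 were the Hedgehog pathway factor GLI3, LRATD1 and the laminin chain LAMA4, each with r = 1.00 and at 0 in all 5 DU145 libraries, so that these values reflect the lines. In PC3, GLI3 was at 84.0 to 88.1 in control and 119 in each overexpression library, LRATD1 at 40.5 to 44.8 and 56.6 to 58.4, and LAMA4 at 54.6 to 61.0 and 79.8 to 84.2.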
